A study of Rattus norvegicus with 6 samples.

Results

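The genes described here are 9 transmitter and marker genes of the enteric neurons, measured in the jejunum of control and stressed rats. They are Vip, Tac1, Npy and Penk, which encode peptide transmitters, Nos1, the neuronal enzyme that makes nitric oxide, the general neuronal markers Elavl4, Uchl1 and Prph, and the receptor gene Ret. Every non-control probe whose RefSeq accession belonged to one of these genes was taken. This gave 13 probes of 41012, for 9 gene symbols of the 13837 named on the array.

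The samples were jejunum of male Sprague-Dawley rats, 6 weeks old and of 200 ± 20 g, which had been kept at 25°C and 60% humidity. The control group had no stress, and the S3d group was exposed to shaking at 0.1 g in heat of 35°C, for 2 h daily over 3 days. Each group had 3 samples, and each sample was hybridised as Cy3-labelled RNA to 1 Agilent array of 45018 spots. By the labels a sample pooled 3 rats and a group had 10, whereas the published methods have 6 rats in a group, from which 3 such pools would share animals. The labels do not say whether samples of a group came from separate animals, so the p-values measure only the spread between these samples. A 3-cm length of gut was minced with its wall, so mucosa, nerve plexuses and muscle layers entered the same extract. In such tissue, fewer cells of a type and less RNA per cell cannot be told apart.

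The nerve cells of the gut wall lie in a plexus between the muscle layers and another beneath the mucosa, and they drive peristalsis, secretion and local blood flow without input from the brain. Vasoactive intestinal peptide and nitric oxide mark inhibitory motor neurons, which relax the muscle, whereas tachykinins such as substance P, made from Tac1, mark excitatory ones. Neuropeptide Y is found in enteric neurons and in sympathetic fibres that reach the gut, and the enkephalins made from Penk act on opioid receptors that slow transit.

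The promoters of the 4 genes that differed between the groups are shown first, since 3 of them were lower and 1 was higher on the arrays labelled S3d. Each run is the RefSeq sequence of the rat assembly GRCr8 from 250 bases before to 50 bases after a start of the gene, 5′ to 3′ along the gene's own strand. Capitals mark matches to the cAMP response element TGACGTC or the TATA box TATAAA on either strand.
Vip, chr1:44470230-44470529, plus strand: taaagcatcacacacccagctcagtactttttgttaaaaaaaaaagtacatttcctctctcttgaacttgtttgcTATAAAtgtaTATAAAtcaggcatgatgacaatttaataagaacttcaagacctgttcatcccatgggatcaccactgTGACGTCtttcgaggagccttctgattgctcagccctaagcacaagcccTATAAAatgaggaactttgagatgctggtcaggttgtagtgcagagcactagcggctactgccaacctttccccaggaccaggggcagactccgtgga
Tac1, chr4:36645333-36645632, plus strand: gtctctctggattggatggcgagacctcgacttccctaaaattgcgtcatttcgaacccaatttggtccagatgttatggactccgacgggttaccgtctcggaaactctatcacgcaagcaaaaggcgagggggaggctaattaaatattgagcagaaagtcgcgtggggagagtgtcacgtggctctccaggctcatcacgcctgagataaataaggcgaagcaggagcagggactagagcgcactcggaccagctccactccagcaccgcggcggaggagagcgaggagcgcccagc
Npy, chr4:80211861-80212160, plus strand: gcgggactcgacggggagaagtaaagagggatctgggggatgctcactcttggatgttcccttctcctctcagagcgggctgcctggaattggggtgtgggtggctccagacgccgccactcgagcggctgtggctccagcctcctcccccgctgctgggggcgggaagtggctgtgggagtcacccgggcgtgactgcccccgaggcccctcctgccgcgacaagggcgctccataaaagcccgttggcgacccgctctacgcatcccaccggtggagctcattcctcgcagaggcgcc
Elavl4, chr5:130367614-130367913, minus strand: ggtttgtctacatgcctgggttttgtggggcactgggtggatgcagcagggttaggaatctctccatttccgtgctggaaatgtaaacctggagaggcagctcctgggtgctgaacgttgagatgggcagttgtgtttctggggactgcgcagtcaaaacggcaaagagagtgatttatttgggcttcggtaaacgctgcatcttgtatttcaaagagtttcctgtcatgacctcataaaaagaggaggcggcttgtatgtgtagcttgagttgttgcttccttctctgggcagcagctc
The Vip promoter held 1 match to TGACGTC, 97 bases before the start, and 3 matches to TATAAA at 175, 165 and 48 bases before it. Tac1, Npy and Elavl4 held no match to either motif in this window. Of the 8 members with a promoter in the RefSeq table, Nos1 also held TGACGTC, and Uchl1 and Prph each held 1 TATAAA. Over all 27457 promoters of the same length, 3.34% held TGACGTC and 14.3% held TATAAA. The 3 genes that were lower therefore shared neither motif in this window. Penk is named only.

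Before the results, 3 facts of the series have to be known. The arrays labelled S3d were brighter throughout, with a 75th percentile of the processed signal of 1458 to 1558, and of 415 to 430 for the control arrays. Each value below is therefore the log2 processed signal minus that percentile on the same array. Without this scaling the median probe was 1.93 higher (log2) on the arrays labelled S3d, and all 8 members tested, all 13 smooth muscle markers and 10 of 11 villus markers were called higher, so higher and lower below mean relative to the 75th percentile of the array. The 3 arrays of each group lay on 1 slide of their own, with 450 days between the 2 scans, so slide, scan and group cannot be told apart. The series also holds a normalized log2 table whose 6 columns each followed the scanner file of the other group, with a rank correlation of at least 0.99999, against 0.941 to 0.948 for the sample of the same name. The group labels of these sources are exchanged against each other, and no sample was reassigned. All differences are S3d minus control by the labels of the scanner files, and exchanging the labels would turn every sign. The signs given here run against the study's own direction for stress: among 10 genes with a direction from real-time PCR, the scanner labels gave the PCR direction for 1 and the table's labels for 10. Lcn2, raised by PCR, was -2.69 by the scanner labels and 2.75 by those of the table, and Mtor, lowered by PCR, was 1.24 and -1.17.

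Of the 13 member probes, 11 were tested because they stood well above background on every array of the control or the S3d group, and 9 of these were above background on all 6 arrays. On the probe with the highest signal of each gene, 4 of the 8 genes tested passed an adjusted p of 0.05 (limma, Benjamini-Hochberg over all probes). Elavl4 was higher, and Vip, Tac1 and Npy were lower, on the arrays labelled S3d. Over all genes 73.5% passed, 36.1% higher and 37.4% lower, so the members' 4 of 8 is not above that background. Of the 11 member probes 6 were called, 3 higher and 3 lower, where 74.0% of all probes were called, 39.5% higher and 34.5% lower. Among those higher, the second Penk probe passed the filter through the S3d arrays alone, so its call had mostly background on the control side. The median difference of the 8 members was -0.18, beside 0.00 over the 11489 named genes tested.

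**Figure D1:**
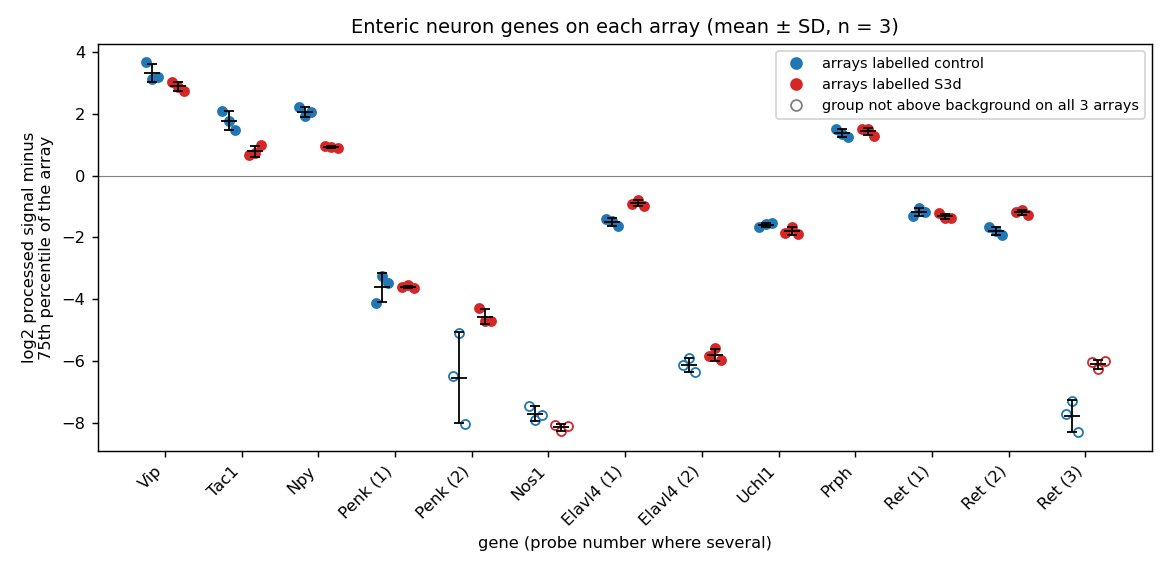
Log2 processed signal minus the array's 75th percentile (vertical axis) for each of the 13 member probes (horizontal axis), with 1 point per array and bars for the mean ± SD of 3 arrays. Open points mark groups not above background on all 3 arrays. Npy and Tac1 stand apart between the groups, Prph and Penk (1) overlap, and Nos1 lies at the bottom in both groups.

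Among the peptide transmitters, Npy had the smallest adjusted p of all members. Its single probe, spotted 10 times on each array, gave 2.23, 1.91 and 2.06 on the control arrays and 0.96, 0.91 and 0.90 on the S3d arrays. Every control array lay above every S3d array, and the S3d arrays lay closer together than the control arrays. Npy fell from 2.07 ± 0.16 to 0.92 ± 0.03 (mean ± SD, n = 3), a difference of -1.15 with a standard error of 0.09 and an adjusted p of 0.000106 (limma), or 2.21-fold. Leaving out each array in turn gave -1.22 to -1.07, all called. Normexp background correction ended the call of Npy, at -0.71 with an adjusted p of 0.156 (limma).

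Tac1, the precursor of substance P and neurokinin A, moved the same way. Its probe, also spotted 10 times, gave 2.09, 1.75 and 1.48 on the control arrays and 0.65, 0.72 and 0.99 on the S3d arrays. The groups did not overlap, although the control arrays spread over more than the distance between any S3d arrays. The mean fell from 1.77 ± 0.31 to 0.79 ± 0.18, a difference of -0.99 with a standard error of 0.18 and an adjusted p of 0.00288 (limma), or 1.98-fold. Normexp background correction ended this call too, at -0.64 with an adjusted p of 0.244 (limma).

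Vip, the precursor of vasoactive intestinal peptide, gave 3.66, 3.13 and 3.18 on the control arrays and 3.03, 2.87 and 2.74 on the S3d arrays. The groups did not overlap, but the gap between the lowest control array and the highest S3d array was small beside the spread of the control group, which control 1 widened. The mean was 3.32 ± 0.29 and then 2.88 ± 0.15, a difference of -0.44 with a standard error of 0.16 and an adjusted p of 0.0495 (limma), or 1.36-fold. This call was lost in 5 of the 6 fits that left out 1 array, and without control 1 the difference was -0.27.

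Groups that do not overlap were common on these arrays, at 78.9% of all tested probes, so the separation of Npy, Tac1 and Vip is read as their own values and not as something particular to them.

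The unscaled signals of the same 3 genes went the other way. Npy measured 1929, 1596 and 1808 intensity units on the control arrays and 2808, 3020 and 2949 on the S3d arrays, 1.65-fold higher. Tac1 measured 1769, 1444 and 1192 and then 2283, 2600 and 3093, which was 1.82-fold higher. Vip rose from 3729 to 5233 units on the control arrays to 10396 to 11936 on the S3d arrays, 2.65-fold higher. The signal of these probes was thus brighter on the S3d arrays, but by less than the median probe of the array.

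The repeated spots give the error within an array. For Npy the SD of log2 signal between its 10 spots was 0.0431 to 0.114 over the 6 arrays, and for Tac1 it was 0.0219 to 0.0819. For Tac1 the range is below the SD between arrays, 0.31 in the control group and 0.18 in the S3d group. For Npy it is below the SD of 0.16 between the control arrays and above that of 0.03 between the S3d arrays.

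**Figure D2:**
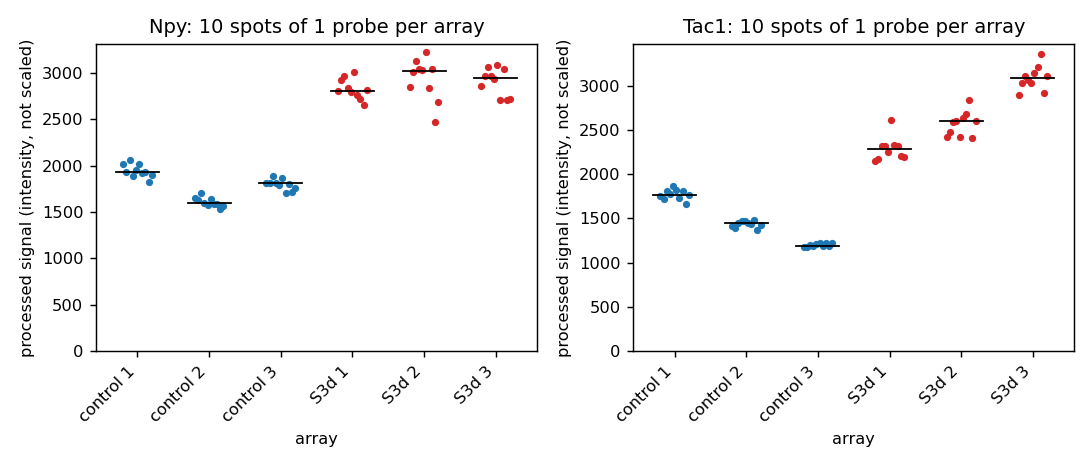
Unscaled processed signal (vertical axis, intensity units) of each of the 10 spots of the Npy and Tac1 probes on each array (horizontal axis), with a line at the median. The spots of an array lie close together, and before scaling every S3d array is brighter than every control array.

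Penk, the precursor of the enkephalins, was dim and its probes differed. The first gave -4.13, -3.23 and -3.48 on the control arrays and -3.62, -3.55 and -3.62 on the S3d arrays. The S3d arrays lay inside the control range, and the difference of 0.02 with a standard error of 0.23 had an adjusted p of 0.949 (limma). The second gave -6.49, -5.10 and -8.03 on the control arrays, of which 1 of 3 was above background, and -4.30, -4.70 and -4.71 on the S3d arrays. It passed the test with a difference of 1.97, a standard error of 0.71 and an adjusted p of 0.0431, on control values that were mostly background, and lost the call in 5 of the 6 fits that left out 1 array, which gave 1.23 to 2.69.

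Nos1, the nitric oxide synthase of inhibitory neurons, was not detected. Its probe was spotted 10 times and was not well above background on any array, with median signals of 1.64 to 1.98 units on the control arrays and 4.93 to 5.41 on the S3d arrays. No difference was tested and no fold is given. The other nitric oxide synthases had detectable probes. Nos2, the inducible enzyme of inflamed tissue, was lower by the test with a difference of -3.05 (adjusted p 0.000383), and Nos3, the endothelial enzyme, had a difference of -0.11 (adjusted p 0.361).

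Of the general neuronal markers, Elavl4 differed and the other two did not pass the test. Elavl4 encodes the RNA-binding protein HuD, found in nerve cell bodies. Its brighter probe gave -1.40, -1.48 and -1.64 on the control arrays and -0.91, -0.78 and -0.97 on the S3d arrays, without overlap. The mean rose from -1.51 ± 0.12 to -0.89 ± 0.10, a difference of 0.62 with a standard error of 0.09 and an adjusted p of 0.0013 (limma), or 1.54-fold, and leaving out each array in turn gave 0.55 to 0.68. Normexp background correction ended the call, at 0.06 with an adjusted p of 0.883. Its dimmer probe was not well above background on any control array and was above it on all 3 S3d arrays, with a bound of at least 1.17-fold brighter, but the groups overlapped and the probe did not pass (adjusted p 0.0984). Under quantile normalization it was called lower, at -0.45 (adjusted p 0.047), and normexp gave -2.02, so it gives no direction.

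Uchl1 encodes a ubiquitin hydrolase that is abundant in neurons. It gave -1.66, -1.55 and -1.54 on the control arrays and -1.86, -1.65 and -1.90 on the S3d arrays. S3d 2 lay within the control range, and the difference of -0.22 with a standard error of 0.09 had an adjusted p of 0.065. It was called lower under quantile normalization, at -0.33 (adjusted p 0.0155), and under median centring, at -0.42 (adjusted p 0.00432). Prph encodes peripherin, the intermediate filament of peripheral neurons. It gave 1.51, 1.35 and 1.26 on the control arrays and 1.51, 1.49 and 1.29 on the S3d arrays. The groups overlapped almost wholly, with a difference of 0.06, a standard error of 0.10 and an adjusted p of 0.602.

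Ret encodes the receptor for the GDNF family of growth factors, which enteric neurons and their precursors need. Its 3 probes did not move together. The first gave -1.30, -1.05 and -1.18 on the control arrays and -1.22, -1.37 and -1.38 on the S3d arrays, which overlap, and its difference was -0.15 with a standard error of 0.09 and an adjusted p of 0.177. The second gave -1.68, -1.80 and -1.94 and then -1.20, -1.10 and -1.27, with no overlap. It rose by 0.62 with a standard error of 0.09 and an adjusted p of 0.00122. Normexp background correction ended this call, at -0.01 with an adjusted p of 0.986 (limma). The first was designed on another RefSeq transcript record than the second and the third. The third was above background on 0 of 3 control arrays and 2 of 3 S3d arrays and was not tested. A direction for Ret therefore depends on the probe chosen.

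Expressed against the other members on the same array, the difference of the 3 transmitters does not depend on a scaling that adds 1 constant per array. Against the mean of Prph, Uchl1, Elavl4 and Ret, each on its brightest probe, Npy lay at 2.94, 2.60 and 2.84 on the control arrays and 1.58, 1.49 and 1.64 on the S3d arrays. Tac1 lay at 2.81, 2.43 and 2.26 and then 1.27, 1.30 and 1.73, and Vip at 4.37, 3.81 and 3.96 and then 3.66, 3.45 and 3.48. For each of the 3 genes all S3d arrays were below all control arrays. The differences were -1.22 for Npy, -1.07 for Tac1 and -0.52 for Vip. Quantile normalization gave -1.11, -0.97 and -0.23, and normexp background correction -0.58, -0.51 and 0.14. These values were chosen for show after the single genes had been seen and carry no test, and a ratio within an array shows unequal change only. Penk, dim and with 0.02 on its first probe, was left out of this comparison. Vip and Npy were among the brightest probes, whose median was -0.32, and Elavl4, Uchl1 and Ret among those of middle brightness, with 0.09. For these medians quantile normalization gave -0.02 and -0.01, and normexp background correction 0.17 and -0.58. The part of brightness in these ratios was not tested.

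Markers of the muscle of the wall differed too, in both directions. Of 13 smooth muscle markers with a tested probe, 8 were lower and 3 higher on the S3d arrays, with a median of -0.82, and under quantile normalization 7 were lower and 4 higher, with a median of -0.33. Over all genes 37.4% were lower, and 55.6% of the brightest of 5 groups of probes, and normexp background correction called none of the 13, with a median of -0.13. The largest fall was in Mylk, the myosin light chain kinase, at -1.57, and the largest rise in Myh11, the smooth muscle myosin heavy chain, at 0.98, although another Myh11 probe had -0.92. Tpm2, whose probe was the brightest of the list, fell by 0.82, but had -0.00 under quantile normalization. The summed signal of the list, relative to the 75th percentile, was 317 to 377 on the control arrays and 242 to 268 on the S3d arrays. Its mean log2 level was 2.70 to 2.88 and then 2.28 to 2.35, without overlap. Acta2 had no probe on the array, and all 13 markers were above background on every array.

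Set against the mean of the muscle list on the same array, the members fell into other groups. Npy was still lower at -0.67 (adjusted p 0.000814, limma) and Tac1 at -0.52 (adjusted p 0.016). Vip had 0.03 with an adjusted p of 0.851. Prph was higher at 0.53 (adjusted p 0.00248), Elavl4 at 1.09 (adjusted p 0.000103), and Ret at 0.32 and 1.09 (adjusted p 0.0372 and 8.52e-05), and Uchl1 had 0.25 (adjusted p 0.109). On this scale 58.7% of all probes were higher and 17.9% lower, with a median of 0.56. The part of the muscle share in the transmitter results was not tested.

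**Figure D3:**
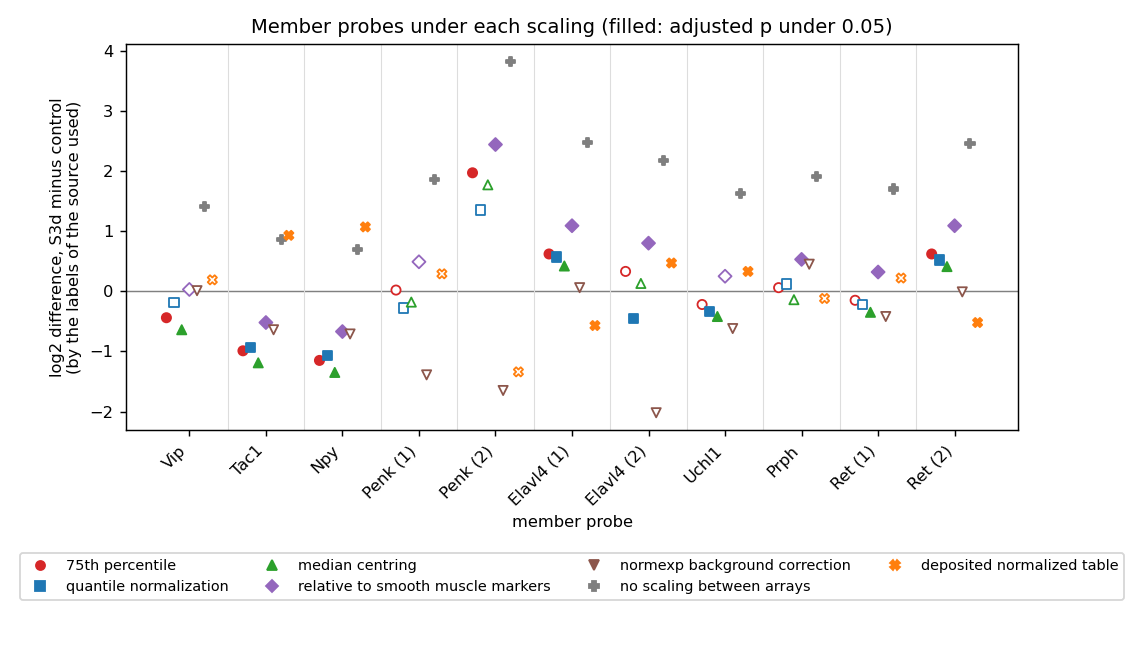
Log2 difference S3d minus control (vertical axis) of the 11 tested member probes (horizontal axis) under 7 ways of treating the signals, 1 symbol each, filled where the adjusted p was under 0.05. Npy and Tac1 lie below 0 under every scaling but the unscaled signals, where all members lie above 0, and they lie above 0 in the deposited table by its own labels.

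Markers of the other cells of the wall are given for the same reason. Villus enterocyte markers were lower for 9 of 11 and higher for 1, with a median of -1.09, and their summed signal was 3523 to 3916 on the control arrays and 1524 to 1583 on the S3d arrays. Under quantile normalization 3 of these were lower and 3 higher, with a median of -0.03. Enteroendocrine markers, whose cells share peptides with neurons, were lower for 5 of 10 and higher for 3, with a median of -0.33. Leukocyte markers were lower for 5 of 7 and higher for 1, with a median of -0.41. Among the enteric glia markers, Sox10 was higher at 0.66 (adjusted p 0.000892) and Entpd2 lower at -0.34 (adjusted p 0.00365). Under normexp background correction both signs turned, to -0.20 for Sox10 and 0.15 for Entpd2. Gfap and S100b, the classic glial proteins, did not pass the filter. Among the markers of interstitial cells of Cajal, the pacemakers of the muscle, Etv1 was higher at 1.09 on its brightest of 4 probes, which ranged from -0.22, Kit lower at -0.55 and the other was not called.

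The members were also read by brightness, because the difference between the groups moved with it on the scale used here. With the tested probes cut into 5 equal groups from dim to bright, the median difference was 0.78, 0.23, 0.09, -0.02 and -0.32. The share called lower rose from 16.7% to 55.6%. Under quantile normalization the medians were 0.23, -0.03, -0.01, -0.01 and -0.02, so only the dimmest group stood apart. Under normexp background correction they rose from dim to bright, at -1.73, -1.2, -0.58, -0.0 and 0.17. The trend with brightness therefore depended on the processing. The differences and medians that follow are on the scale used here. Vip, at -0.44, and Npy, at -1.15, lay in the brightest group, as did Prph, which at 0.06 was above the median of that group. Tac1, at -0.99, lay in the next, with a median of -0.02, but its mean level of 1.28 stood at the border with the brightest group. The brighter Elavl4 probe, Uchl1 and the first and second Ret probes lay in the middle group, with a median of 0.09. Elavl4 and the second Ret probe, both at 0.62, were above that median. Uchl1, at -0.22, and the first Ret probe, at -0.15, were below it. The part of brightness in the differences of the members was not tested.

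**Figure D4:**
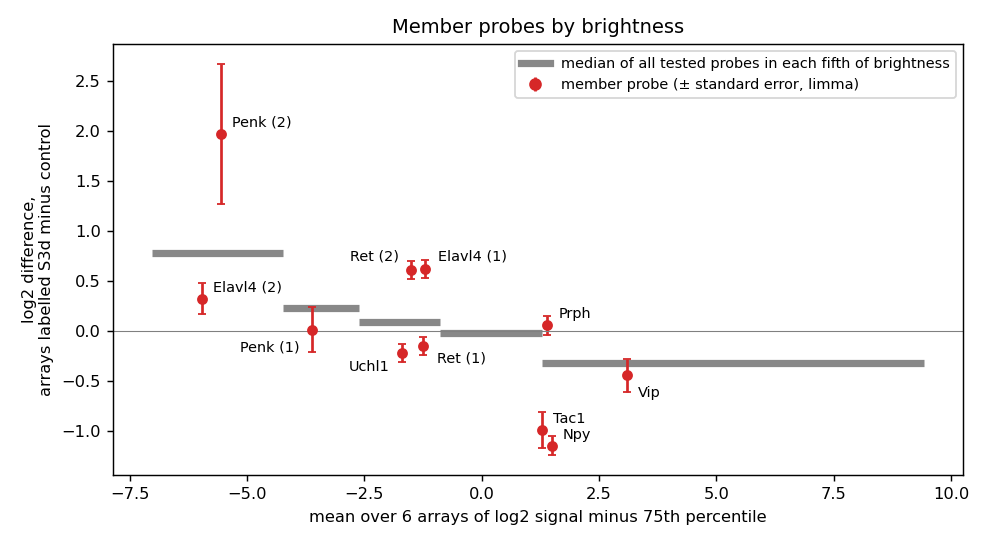
Log2 difference, arrays labelled S3d minus control (vertical axis, ± standard error from limma), against mean log2 signal over 6 arrays (horizontal axis) for the 11 tested member probes, with grey bars for the median of all tested probes in each of 5 brightness groups. Npy and Tac1 lie well below the bar of their group, and Vip lies near it.

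Receptors and effectors of these transmitters were measured on the same arrays. Of 10 genes tested, 4 were higher and 3 lower, with a median of 0.22. Of the receptors for vasoactive intestinal peptide, Vipr1 was higher at 0.62 (adjusted p 0.00104) and Vipr2 lower at -0.43 (adjusted p 0.00301), but the other Vipr2 probe had 0.32. The tachykinin receptors did not pass the test. Tacr1, the receptor for substance P, had 0.00, Tacr2 had 0.24 with an adjusted p of 0.0509, and Tacr3 had 0.21. Npy1r passed the test (1.88, adjusted p 0.00111), but with 1 of 3 control arrays above background its size is not measured, and Npy2r and Npy5r did not pass the filter.

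Both opioid receptors measured were lower. Oprd1, the delta receptor, fell by 1.49 on the log2 scale (adjusted p 4.9e-05). Oprm1, the mu receptor, was above background on all control arrays and on no S3d array, so it passed the filter through the control arrays alone. Its bound was at least 3.46-fold lower. The subunits of soluble guanylyl cyclase, the receptor for nitric oxide in muscle, were both higher, Gucy1a1 at 1.02 (adjusted p 0.000302) and Gucy1b1 at 1.39 (adjusted p 2.4e-05). Under normexp background correction Vipr1 and Gucy1b1 were above 0, at 0.30 and 0.85, but not called. Npy1r and Gucy1a1 were below it, at -1.52 and -0.67. Of the 10 genes, 0 were called higher there and 1 lower.

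The ligands and co-receptors of RET were mixed, with 3 of 8 higher, 2 lower and a median of -0.06. Gdnf, the main ligand for enteric neurons, was -2.57 on its brighter probe (adjusted p 3.6e-05) and 1.51 on its other, so that no direction can be given for the gene. Nrtn, the ligand neurturin, was lower at -1.45 (adjusted p 3.6e-05). Pspn was higher at 0.76, and the ligand Artn had -0.31 (adjusted p 0.0972). Among the co-receptors, Gfra4 was higher at 1.17 and Gfra1, which binds GDNF, at 0.42 (adjusted p 0.00955). Gfra2 had -0.07, and Gfra3 had -0.04 on its brighter probe and -1.61 on the other. Of the other ELAV genes, Elavl3, which like Elavl4 is neuronal, was higher at 1.46 (adjusted p 0.00244, with 2 of 3 control arrays above background), and Elavl1, which most cells express, was lower at -1.43 (adjusted p 0.000179). Gfra4, Gfra1, Pspn and Elavl3 were below 0 under normexp background correction. It called 0 of the 8 RET ligands and co-receptors, so the call of Nrtn, at -1.02, was lost as well.

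The enzymes that cut and degrade neuropeptides were higher for 3 of 8 and lower for 2, with a median of 0.18. Cpe, the carboxypeptidase that trims peptide precursors, rose from 0.95 ± 0.12 to 2.45 ± 0.05 (adjusted p 2.9e-05), and Dpp4, a brush border peptidase that cleaves neuropeptide Y, fell by 0.84 (adjusted p 0.000297). Mme, the neprilysin that degrades substance P and enkephalins, rose by 0.68 (adjusted p 0.00267). Quantile normalization gave -0.47 for Dpp4 and 1.32 for Mme. Normexp background correction gave -0.20 and 1.32, and called 1 of the 8 genes higher and 0 lower, so the call of Dpp4 was lost.

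A wider list of 31 other enteric neuron genes with a tested probe was measured too. It had 13 genes higher, 5 lower and 13 not called, with a median of 0.34, against 36.1% higher and 37.4% lower over all genes. Quantile normalization gave 12 higher and 7 lower with a median of 0.18, and normexp background correction called none of them, with a median of -0.86. Hand2, a transcription factor of enteric neuron precursors, fell by 1.41 (adjusted p 6.2e-05). Calb1, the calcium-binding protein calbindin, is among the 13 genes higher, but passed the filter through the S3d arrays alone. It was not above background on any control array and had a bound of at least 1.46-fold higher. Normexp gave -1.84 for Calb1, so its direction depended on the background correction. Gal, which encodes the transmitter galanin and had the brightest probe of the list, had 0.05 (adjusted p 0.742).

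**Figure D5:**
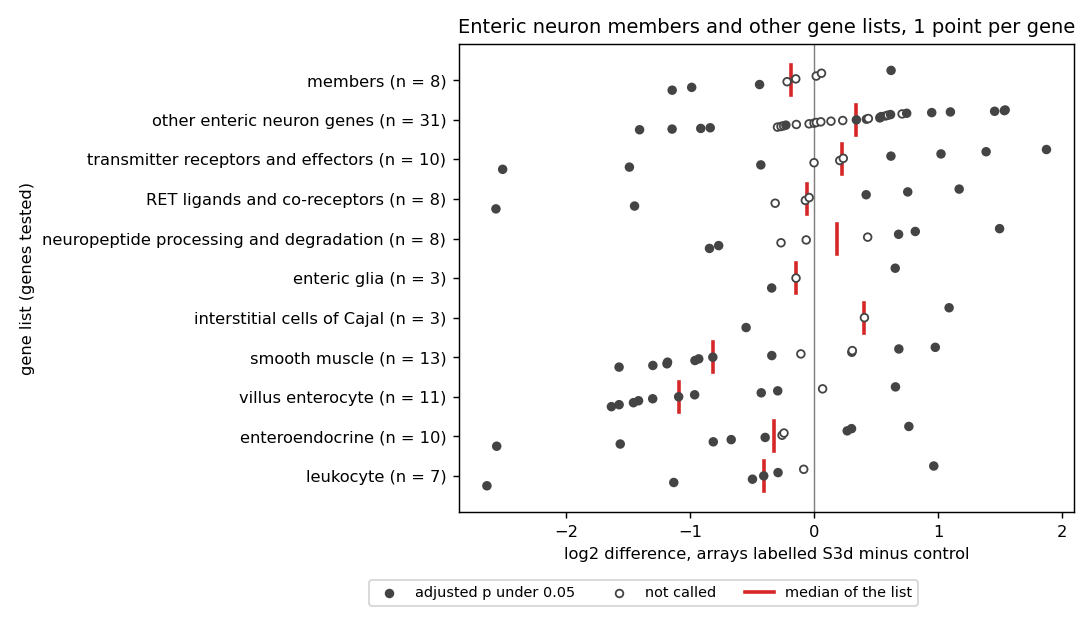
Log2 difference, arrays labelled S3d minus control (horizontal axis), of every tested gene of the members and of 10 other gene lists (vertical axis), with 1 point per gene on its brightest probe, filled where the adjusted p was under 0.05, and a red line at the median. The members spread from -1.15 to 0.62 about a median of -0.18, and the smooth muscle and villus enterocyte lists lie to the left at -0.82 and -1.09.

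In the normalized table of the series, read by its own labels, the same members stood apart with the sign turned. Npy was at 10.6 ± 0.04 in the control columns and 11.7 ± 0.14 in the S3d columns, a difference of 1.07 with an adjusted p of 0.000136. Tac1 differed by 0.93 (adjusted p 0.00336) and the brighter Elavl4 probe by -0.57 (adjusted p 0.00247). Vip differed by 0.19 (adjusted p 0.31) and was not called there. The table called Uchl1 as well, at 0.33 with an adjusted p of 0.0159, so that 3 members were higher and 1 lower by its labels. The table holds the same hybridisations and is no independent measurement. The dimmer Elavl4 probe was 0.47 there (adjusted p 0.0454), with the sign of Npy and Tac1, so that only the brighter probe moved against them.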

How the data were processed

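Gene expression was measured in 6 jejunum samples, 3 control and 3 S3d, on 1-colour arrays. The authors deposited the output of Agilent Feature Extraction 10.7.3.1, of which the intensity values used are the processed signal, corrected for background but not scaled between arrays, and the median signal and background of each spot. They also deposited 1 table of log2 values, quantile-normalized as judged from the values, with column medians of 6.65 and no centring of probes; its program is not given in the sources used here. Here the log2 processed signal, less the 75th percentile of its array, was used, without control and outlier spots, and repeated spots were averaged. The filter kept 31367 of 41012 probes, those above background (the program's well-above-background flag) on every array of a group, and the test was a group-only model (lmFit and eBayes of limma 3.58.1, R 4.3.3) with Benjamini-Hochberg adjustment. Of these, 739 passed in the control group only and 3576 in the S3d group only. No spot was saturated, and 69.1% to 81.5% of spots were well above background. The number of arrays limits the precision. In simulated data without a slide effect, 31137 probes with 200 changed by log2 1, the test recovered 70%, with 4 false calls. Of the real probes 74.0% were called, a far larger share than was changed in the simulation. Its rates therefore do not carry over to this comparison.

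Probes were named through RefSeq accessions (GRCr8), and the brightest probe stands for a gene. The 10 PCR genes are those the study measured by PCR, of which only directions were taken. The members, the 12 gene lists and the tests were chosen with earlier results of these data known. All 9 members are named. From each list the text may name the largest rise and fall among called genes and the gene with the highest signal, and any gene of the receptor, RET ligand, ELAV and nitric oxide synthase lists. Gfap, S100b and Acta2 were added because they define glia or muscle. The bound for a probe dim on all arrays of a group takes, per array, the higher of its own value and the lowest value among probes above background. Alternatives were other scalings, normexp with an offset of 50, other filters, outlier spots kept, the table, the methods' analysis of variance, a trend in limma, a replicate block, the mean over probes and leaving out each array.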

Additional observations from a re-analysis of the deposited data

How the results depend on the processing

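Of the 4 genes called, Npy, Tac1 and Elavl4 kept direction and call when any 1 array was left out. The number of members called was 3 to 4 over these fits, the number of member probes 4 to 7, of all probes 21442 to 22813 and of smooth muscle markers 11 to 12. Without scaling, 8 members and 11 member probes were called, all higher, and Vip was 1.41, Tac1 0.86, Npy 0.70, Uchl1 1.63 and the first Ret probe 1.70. Normexp background correction called 0 members, 0 member probes, 0 smooth muscle markers and 1752 probes in all, against 23202, and gave 0.01 for Vip, -1.39 and -1.65 for the Penk probes, -2.02 for the dimmer Elavl4 probe and -0.01 for the second Ret probe. Relative to smooth muscle, Vip was 0.03, Uchl1 0.25 and the first Ret probe 0.32. Quantile normalization gave -0.28 for the first Penk probe and -0.45 for the dimmer Elavl4 probe, and called neither Vip (-0.19) nor the second Penk probe. Median centring gave -0.18 for the first Penk probe and -0.14 for Prph. The mean over all Ret probes was 0.23. The table, by its own labels, gave 0.19 for Vip, 0.93 for Tac1, 1.07 for Npy, -1.34 for the second Penk probe, -0.57 for the brighter Elavl4 probe, 0.33 for Uchl1, -0.12 for Prph, and 0.22 and -0.52 for the first and second Ret probes. With 1 array left out, Vip ranged from -0.54 to -0.27 and the first Penk probe from -0.24 to 0.21, at -0.24 without control 1 and -0.01 without S3d 2. The causes were not tested. Vip and the second Penk probe also lost their calls without the dim-probe filter and in the methods' analysis of variance, Vip with outlier spots kept, and the second Penk probe under median centring (adjusted p 0.0596), which called 6 members, 5 of them lower. Normexp ended the calls of Tac1 (-0.64), Npy (-0.71) and the brighter Elavl4 probe (0.06).

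Samples with the same replicate number did not deviate together, with correlations of -0.049 to 0.022, so the numbers do not pair them. A fit with the replicate number as a block called 4 members, 7 member probes, 22211 probes in all and 11 smooth muscle markers, and changed 1 member call, the dimmer Elavl4 probe (adjusted p 0.0154). A fit with slides as blocks could not be had, because each slide carried 1 group. Dim probes limit what can be said of Nos1, Penk and the third Ret probe.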
